A study of Mus musculus with 2 samples.

Results

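The genes described here are 33 genes of the integrated stress response, the programme run by the transcription factor ATF4. They were chosen by name, with earlier results of these data known. Their probe sets are those whose only gene symbol in the platform annotation was one of these genes, with Mars1 counted for the older symbol Mars. All 33 were measured, by 75 of the 45101 probe sets on the array, among 18193 genes with a probe set of their own. Total RNA of pancreatic islets of male mice aged 6 weeks was profiled on Affymetrix mouse expression arrays, with 1 array for each of 2 groups. The first group is transgenic mice that overexpress the microRNAs miR-141 and miR-200c (title Ripmir_islets, genotype miR-141/200c_overexpression), and the second is control mice (title C57Bl6_islets, genotype Bl6_control). Islets of both groups were left untreated between isolation and RNA extraction. The labels do not spell out the promoter of the transgene, the strain of the transgenic mice or how many animals gave islets to a sample. The series title ties the microRNA family to survival of beta cells in type 2 diabetes, and the comparison here asks how stress response messenger RNAs differ when these microRNAs are overexpressed.

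With 1 array per genotype no value has a replicate error, no difference has a replicate check and no p-value was computed. Differences are given as transgenic minus control on the log2 scale, and "higher" and "lower" describe these arrays alone. The probe set with the highest mean over both arrays stood for its gene, and a gene was kept when a value reached 5.76, the median of all values. A gene past the 2-fold rule differed by at least 1 on the log2 scale. Of the 33 genes 32 were kept, each at the floor on both arrays. Slc7a11 lay below it on both.

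The integrated stress response starts when kinases that sense endoplasmic reticulum stress, amino acid shortage, haem shortage or viral RNA phosphorylate the initiation factor eIF2. General translation then drops, while the Atf4 messenger RNA, which carries upstream open reading frames, is translated more, so much of the control of ATF4 lies in translation that an RNA array does not read. ATF4 pairs with C/EBP factors and raises genes for amino acid synthesis, amino acid uptake and the charging of tRNAs, and, under lasting stress, the pro-apoptotic factor CHOP. Beta cells make insulin at a high rate and depend on this branch, since mice without the eIF2 kinase PERK lose beta cells.

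The overexpressed microRNAs are shown because they define the transgenic group. Their mature 3p strands are given 5′ to 3′ from RefSeq (GRCm38.p6), with the seed, bases 2 to 8, in capitals.
mmu-miR-141-3p: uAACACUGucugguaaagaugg
mmu-miR-200c-3p: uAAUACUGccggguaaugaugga
Both lie on the minus strand, at chr6:124717917-124717938 for miR-141 and chr6:124718324-124718346 for miR-200c. The seeds differ by U4C, counted from 1 at the 5′ end of the microRNA with the base of miR-200c first. The array held no probe set for them, so the overexpression was not measured here.

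ATF4 acts through the C/EBP-ATF response element, searched for as TGATGNAA on both strands in the RefSeq promoter windows of GRCm38.p6, which run from 250 bases before to 50 bases after a gene's start. Of the 33 genes 27 had such a window. The motif was found for 9 of them (33.3%), against 1219 of 27025 genes in the table (4.51%). Since the genes were chosen as part of the ATF4 programme, a share above that of all genes is no test of them. These genes were Asns, Atf3, Chac1, Gars, Nupr1, Slc1a4, Slc7a11, Trib3 and Vldlr. Windows of 30 bases around the motif are shown for genes of different roles, since ATF4 is known to act through it and the search fixed its letters. Each is written 5′ to 3′ in the direction of the gene, with the motif, TGATGNAA or its reverse complement, in capitals.
Asns, chr6:7693214-7693243, minus strand: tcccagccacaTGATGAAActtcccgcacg
Atf3, chr1:191183425-191183454, minus strand: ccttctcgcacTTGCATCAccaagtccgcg
Chac1, chr2:119351038-119351067, plus strand: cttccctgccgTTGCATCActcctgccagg
Trib3, chr2:152344028-152344057, minus strand: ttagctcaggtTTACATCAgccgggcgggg
Nupr1, chr7:126625562-126625591, minus strand: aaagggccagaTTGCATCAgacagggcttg
Slc1a4, chr11:20332699-20332728, minus strand: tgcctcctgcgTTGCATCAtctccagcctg
Vldlr, chr19:27216809-27216838, plus strand: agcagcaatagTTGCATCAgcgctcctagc
The 8 kept genes with it had a median difference of -0.14 and 6 were negative. The 18 kept genes without it had a median of -0.24 and 15 were negative, and they held both members past the 2-fold rule, Ddit3 and Mthfd2. Of all kept genes 45.7% were negative. Absence from this window does not show that a gene lacks the element elsewhere, and whether these groups differ was not tested. The endoplasmic reticulum stress element ERSE, through which ATF6 acts, was in the windows of none of the 27 genes and of 0.137% of all genes. With so low a share over all genes, its absence from these windows tells little. A match in such a window is a description of its letters, not a measured binding site.

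As a group the stress response genes were slightly lower in the transgenic sample. Of the 32 kept genes 26 had a negative difference and 6 a positive one, where 45.7% of all 12143 kept genes were negative. Their median difference was -0.21, against 0.029 over all kept genes. The list was chosen with earlier results of these data known, so these shares describe it and are not a test. The shift was small for most members: 2 of 32 passed the 2-fold rule on the lower side (0.511% of all kept genes did) and none on the higher side (2.51%). At 1.5-fold, 4 were lower (3.14% of all kept genes) and none higher (7.73%). With the floor raised to 7.81, the 75th percentile of all values, 26 of 31 members were negative, against 46.7% of 7495 genes. Just inside the 2-fold rule stood Ddit3, at 2.01-fold, and Mthfd2, at 2.00-fold, and the next member outside it was Aldh1l2, at 1.63-fold.

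**Figure D1:**
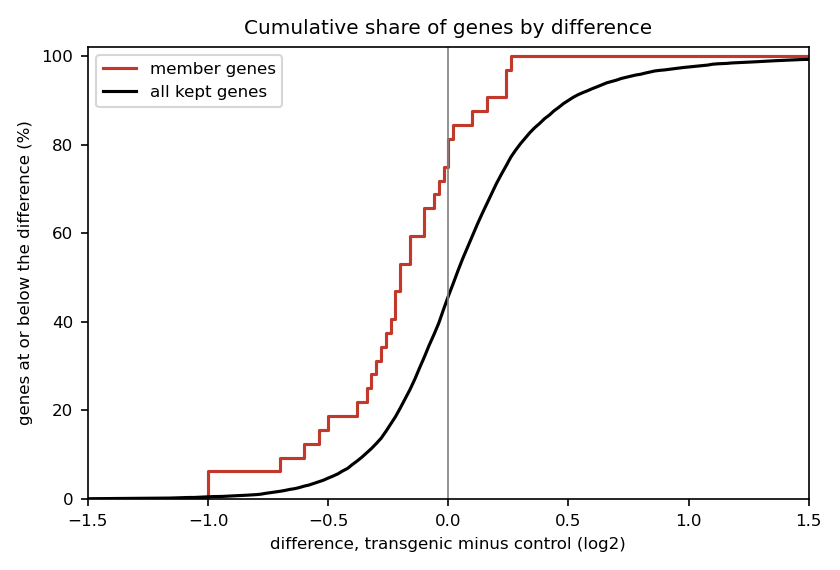
Cumulative share of genes (%) against the difference between the arrays (transgenic minus control, log2), for the 32 kept member genes (red) and all 12143 kept genes (black). The red line lies left of the black one over most of the range, and no member lies beyond 0.26 on the higher side.

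The transcription factors included the furthest member. Ddit3, which encodes the pro-apoptotic factor CHOP, had a log2 value of 10.37 in the transgenic sample and 11.37 in the control sample, 2.01-fold lower. Only 58 of the 12143 kept genes had a difference as low or lower. Its other probe set had the same sign, at 6.84 in transgenic and 7.41 in control islets, a difference of -0.57. Atf4 itself, the factor at the centre of the programme, read 12.24 in transgenic and 12.28 in control islets. That difference of -0.04 is among the smallest of the group, and its other probe sets gave -0.05 and -0.43. Atf5, a related factor with a similar translational control that protects beta cells under stress, was at 10.19 in transgenic and 10.73 in control islets, or -0.54.

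The partners of ATF4 were also on the lower side. Cebpg, which forms dimers with ATF4 on the response element, stood at 10.12 in transgenic and 10.46 in control islets (difference -0.35). Cebpb, another C/EBP partner, stood at 10.18 in transgenic and 10.47 in control islets (-0.28), with its other probe set at 0.02. Both remaining factors differed the other way. Atf3, a stress-induced repressor and target of ATF4, read 9.49 in transgenic and 9.27 in control islets (0.22). Nupr1, a small chromatin-associated stress protein, read 11.14 in transgenic and 10.88 in control islets (0.26), the highest difference of all 32 kept members. Its other probe set differed by 0.03. With probe sets averaged Nupr1 stood at 0.14, below Wars and Atf3, each at 0.22. Of the 7 factors 5 were negative, with a median of -0.28, where 45.7% of all kept genes were negative.

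**Figure D2:**
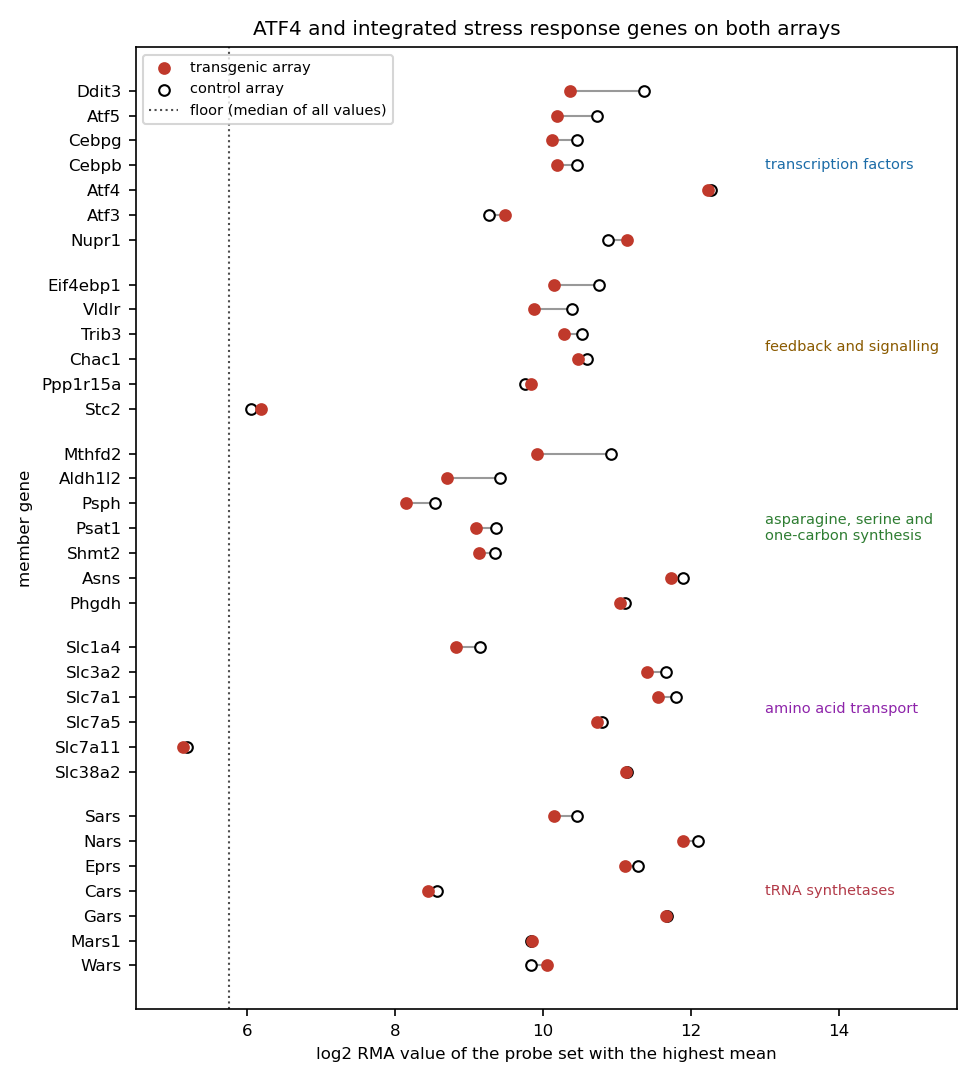
Log2 RMA values of the 33 member genes, for the probe set that stands for each gene, with the transgenic array as filled red points and the control array as open points. Rows are grouped by role, the dotted line is the floor of 5.76, and the longest lines belong to Ddit3 and Mthfd2, at 10.37 and 9.92 on the transgenic array, against 11.37 and 10.92 on the control array.

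Enzymes that make asparagine, serine and one-carbon units were all on the lower side by the probe set that stood for each gene. That is 7 of 7, with a median of -0.27, where 45.7% of all kept genes were negative. Psat1 and Phgdh each also had a probe set of the opposite sign. The furthest of them, Mthfd2 and Aldh1l2, are mitochondrial enzymes of the folate cycle. Mthfd2, the mitochondrial methylenetetrahydrofolate dehydrogenase, read 9.92 in transgenic and 10.92 in control islets. Its other probe set differed by less, at 9.88 in transgenic and 10.19 in control islets (-0.31). Aldh1l2, the mitochondrial formyltetrahydrofolate dehydrogenase, read 8.71 in transgenic and 9.42 in control islets (-0.71). Shmt2, which turns serine into glycine and a one-carbon unit in mitochondria, read 9.13 in transgenic and 9.35 in control islets (-0.22), with other probe sets between -0.72 and -0.07.

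Serine synthesis runs through the enzymes Phgdh, Psat1 and Psph. Phgdh, which opens serine synthesis, read 11.04 in transgenic and 11.10 in control islets (-0.06), with other probe sets between -0.07 and 0.03. Psat1, the transaminase of the following step, read 9.10 in transgenic and 9.37 in control islets (-0.27), while its other probe set had the opposite sign at 0.15. Psph, the phosphatase that releases serine, read 8.15 in transgenic and 8.54 in control islets (-0.39). Of these enzymes Psph had the furthest difference, from its only probe set. Asns, the asparagine synthetase whose promoter element is printed above, stood at 11.73 in transgenic and 11.89 in control islets (-0.16), with -0.19 from its other probe set.

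A further list of 15 serine, glycine and folate enzymes outside the group was read beside them. Its 10 kept genes had a median of 0.15, with 4 negative. Gldc, a subunit of the glycine cleavage system, was 2.12-fold higher, at 6.98 in transgenic and 5.90 in control islets. Mthfd1l and Mthfd2l, other mitochondrial enzymes of the folate cycle that were named after their values were seen, stood at -0.52 and -0.46. Whether the members and this list differ was not tested.

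Amino acid transporters of the programme were lower by small amounts. All 5 kept ones were negative (45.7% of all kept genes were), with a median of -0.24 and a range from -0.32 to -0.01. The median was -0.14 with the probe sets of a gene averaged, where Slc38a2 stood at 0.02, and -0.04 without the probe sets marked _s, _x or _a, whose probes can match more than 1 transcript or gene. Slc1a4, a carrier of neutral amino acids, read 8.82 in transgenic and 9.15 in control islets (-0.32), but its other probe sets gave -0.10 and 0.01. Slc3a2, the heavy chain shared by several transporters, read 11.41 in transgenic and 11.66 in control islets (-0.25). Its light chain partner Slc7a5, which carries large neutral amino acids, read 10.73 in transgenic and 10.80 in control islets (-0.07).

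Slc7a1, the carrier of cationic amino acids, read 11.56 in transgenic and 11.80 in control islets (-0.24). Slc38a2, a sodium-coupled glutamine transporter, hardly differed, at 11.12 in transgenic and 11.13 in control islets. Slc7a11, the cystine carrier, had values of 5.13 in transgenic and 5.19 in control islets, below the floor, so the array gives no measured difference for it. The 18 kept genes of a list of other amino acid transporters had a median of 0.06, with 8 negative and none past the 2-fold rule. Slc7a8, a light chain that also binds Slc3a2, was the lowest at -0.46, and Slc3a1, a heavy chain of another carrier, was the highest at 0.82.

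The tRNA synthetases charge tRNAs with amino acids. Of 7 members 5 were negative, the median difference was -0.12 and none passed the 1.5-fold rule. Over all kept genes 45.7% were negative, and 3.14% were 1.5-fold lower and 7.73% higher. Sars, for serine, read 10.15 in transgenic and 10.46 in control islets (-0.31). Nars, for asparagine, read 11.90 in transgenic and 12.10 in control islets (-0.20). Each of these had a second probe set on the same side, at -0.26 and -0.18. Eprs, the joint enzyme for glutamate and proline, read 11.11 in transgenic and 11.28 in control islets (-0.17). Its 3 other probe sets lay between -0.71 and -0.13.

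Cars, for cysteine, read 8.45 in transgenic and 8.57 in control islets (-0.12). Gars, for glycine, and Mars1, for methionine, were level on the arrays, with differences of -0.01 and 0.01. Gars read 11.67 on both, and Mars1 read 9.85 in transgenic and 9.84 in control islets. Wars, for tryptophan, went the other way at 10.06 in transgenic and 9.83 in control islets, and all 4 of its probe sets were positive, from 0.12 to 0.34. Wars is also induced by interferon.

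Other synthetases gave no common direction in the main setting. The 12 kept cytosolic enzymes outside the group had a median of -0.08, with 6 negative and 6 positive. Iars and Tars, for isoleucine and threonine, were the lowest at -0.46 and -0.39, and Qars and Vars, for glutamine and valine, the highest at 0.31 and 0.30. Without _s, _x and _a probe sets the median of this list was -0.19, against -0.06 for the member synthetases. At the raised floor these medians were -0.17 and -0.12. After subtraction of a lowess trend they were -0.11 and -0.15. Which list was lower thus depended on the setting, and whether they differ was not tested.

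Feedback and signalling members were split. Eif4ebp1, an inhibitor of cap-dependent translation that ATF4 raises, read 10.14 in transgenic and 10.76 in control islets, 1.53-fold lower. Its other probe sets gave -0.51 and -1.06. Vldlr, a lipoprotein receptor raised by ATF4, read 9.88 in transgenic and 10.40 in control islets, 1.43-fold lower. All 6 of its probe sets were negative, from -0.71 to -0.40, which makes it the member read most often and always on the same side.

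The others in this group differed by little. Trib3, a pseudokinase that restrains ATF4 and CHOP, read 10.29 in transgenic and 10.53 in control islets (-0.24). Chac1, an enzyme that breaks down glutathione, read 10.48 in transgenic and 10.59 in control islets (-0.11). Ppp1r15a, known as GADD34, brings a phosphatase to eIF2 and so ends the response. It read 9.84 in transgenic and 9.75 in control islets (0.09). Stc2, a secreted glycoprotein, was near the floor at 6.19 in transgenic and 6.05 in control islets (0.14), and another probe set at the floor gave -0.35.

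Across probe sets the direction was mostly shared. Of 71 member probe sets at the floor 55 were negative, or 77.5%, against 48.1% of 20548 such probe sets with 1 gene symbol. Of 22 members with several probe sets at the floor, 13 were negative on all of them, Nupr1 and Wars were positive on all of them, and 7 had both signs: Cebpb, Cebpg, Phgdh, Psat1, Slc1a4, Slc38a2 and Stc2. Such probe sets share the RNA they read, so they do not replicate each other. Over 5180 genes with several probe sets at the floor, their differences spanned a median range of 0.28, and 21 of the 32 kept members differed by less than that. With probe sets averaged per gene, Ddit3 stood at -0.79 and Mthfd2 at -0.66, and no member passed the 2-fold rule.

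**Figure D3:**
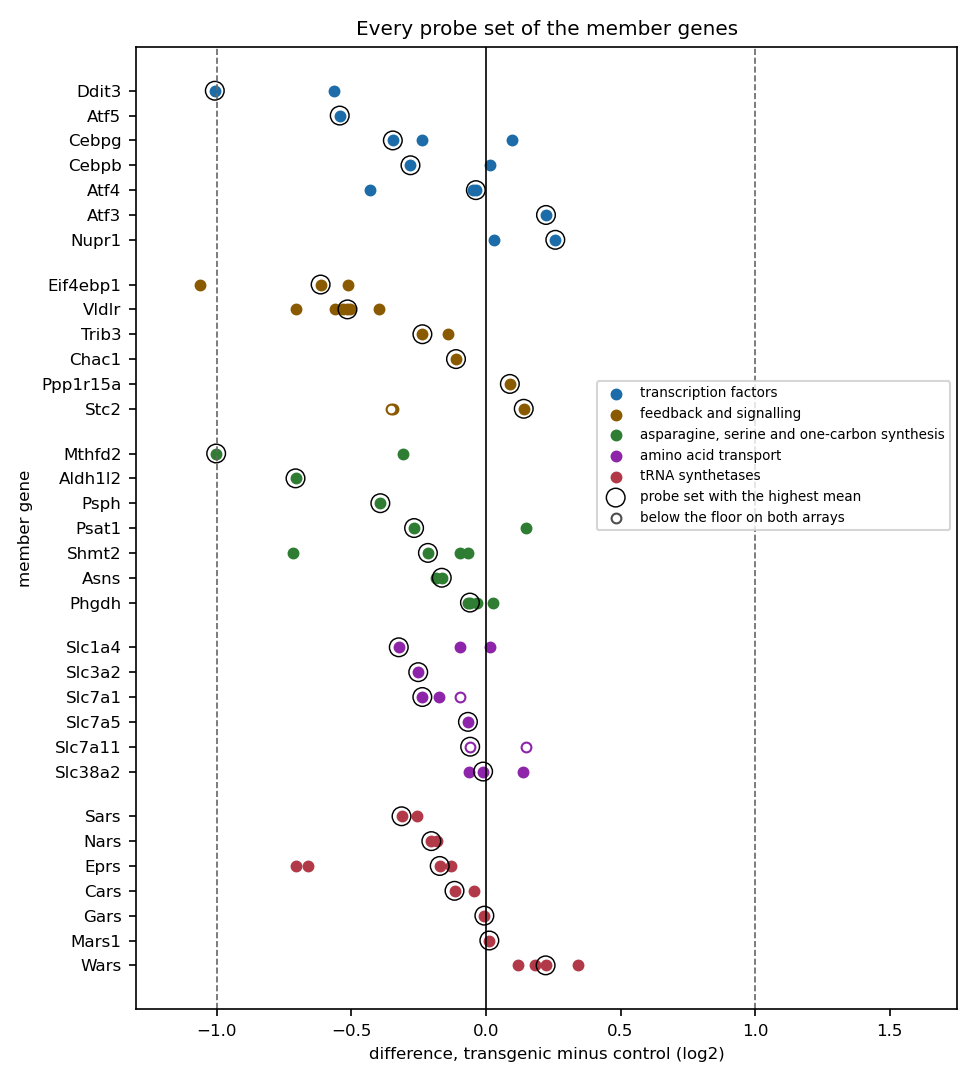
Difference between the arrays (transgenic minus control, log2) for each of the 75 probe sets of the member genes, with the probe set that stands for the gene ringed and those below the floor on both arrays open. The dashed lines mark the 2-fold rule, which 3 probe sets passed on the lower side, 1 each of Ddit3, Mthfd2 and Eif4ebp1. Of 20548 probe sets with 1 gene symbol at the floor, 161 were 2-fold lower and 442 higher. The Eif4ebp1 probe set was a weak one, at 6.23 in transgenic and 7.29 in control islets. All 6 points of Vldlr lie between -0.71 and -0.40.

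Genes upstream of ATF4 had medians near 0, and how these differ from the members' median was not tested. The 8 genes for eIF2 kinases and sensors had a median of 0.07, with 3 negative and none past the 2-fold rule. That median was -0.05 at a floor of 7.81. Impact, an inhibitor of the kinase that senses amino acid shortage, was the lowest at -0.89, and Eif2ak2, the kinase that senses viral RNA, followed at -0.55. Eif2ak4, the amino acid sensor, and Oma1, the mitochondrial protease that signals to the response, were each at 0.13. Eif2ak3, the gene of PERK, stood at 0.07, named after its value was seen. A list of subunits of eIF2, its exchange factor and its phosphatase also held Eif2a and Eif2d, which encode separate initiation factors. Its 13 kept genes had a median of 0.04 with 4 negative, and a median of -0.01 without _s, _x and _a probe sets. Eif2s1, also on that list, was not measured. These values are of messenger RNA, and phosphorylation was not measured.

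Genes downstream of ATF4 that the group does not hold were mixed. Of 22 kept genes reported as ATF4 targets 14 were negative (45.7% of all kept genes were), with a median of -0.12 and none past the 2-fold rule. Xpot, which exports tRNAs from the nucleus, was the lowest at -0.65 and Herpud1, of endoplasmic reticulum quality control, stood at -0.53. Sesn2, a stress sensor that also answers to p53, was the highest at 0.73 and Slc1a5, a glutamine carrier, stood at 0.48. This list shares genes with the lists of synthetases, transporters and folate enzymes above.

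The branch of the unfolded protein response under ATF6 and XBP1 differed by about as much as the members. Of its 24 genes 21 were negative, with a median of -0.19, and 2 passed the 2-fold rule on the lower side. Of all kept genes 45.7% were negative and 0.511% were 2-fold lower. Derl3, which helps move misfolded proteins out of the endoplasmic reticulum, read 8.32 in transgenic and 9.80 in control islets, 2.78-fold lower. Creld2, which aids folding in the same organelle, read 10.49 in transgenic and 11.64 in control islets. Whether the ATF4 members and this branch differ was not tested.

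**Figure D4:**
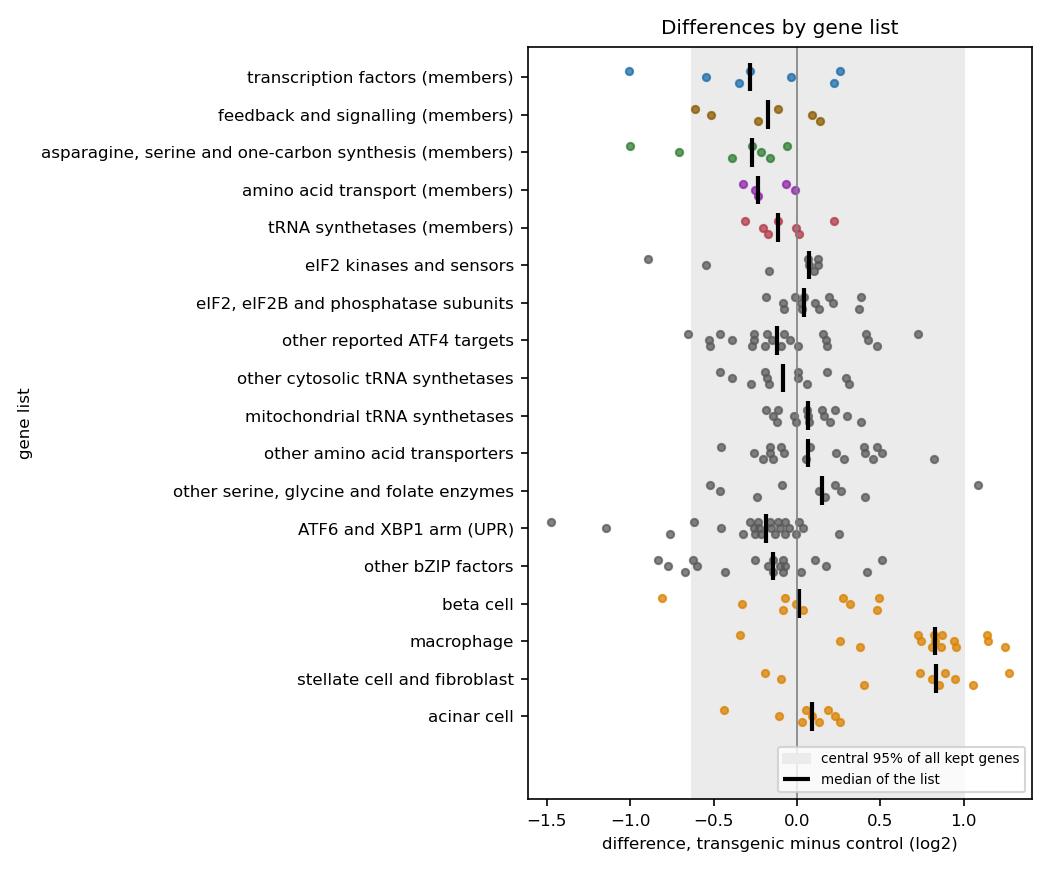
Difference between the arrays (transgenic minus control, log2) of each kept gene in the member groups (coloured), related lists (grey) and cell type markers (orange), with list medians as black bars and the central 95% of all kept genes shaded. Medians of all 5 member groups lie between -0.28 and -0.12, while those of macrophage and stellate markers lie at 0.83.

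Islet RNA comes from several cell types, and in a bulk sample fewer cells of a type and less RNA per cell cannot be told apart. All 10 beta cell markers were well above the floor, from 10.41 to 14.95 in transgenic and from 10.09 to 15.02 in control islets, with a median difference of 0.01. Of these 5 were negative, and their differences ran from -0.81 for Ucn3 to 0.49 for Abcc8. The beta cell markers had summed unlogged values of 98259 in transgenic and 97517 in control islets. The sums of the acinar markers, given below, were larger on both arrays. These lists hold different genes, so their sums do not show which cell type gave more RNA. Of 18 macrophage markers 15 were kept and 14 of these were higher, with a median of 0.83, where 6584 of all 12143 kept genes were higher. Past the 2-fold rule were 3 of them, Mpeg1, C1qb and C1qc, at 1.25, 1.15 and 1.14 (2.51% of all kept genes were 2-fold higher). Their summed unlogged values were 11395 in transgenic and 7224 in control islets, and Itgam, Mrc1 and Cd163 lay below the floor on both. The markers Adgre1, Csf1r and Cd68, named after their values were seen, were kept at differences of 0.75, 0.81 and 0.94. Cd14, also named after its value was seen, was the kept macrophage marker that was lower, at -0.34. Of 12 stellate cell and fibroblast markers 10 were kept and 8 of these were higher (median 0.83). Col1a2 and Postn passed the 2-fold rule, at 1.27 and 1.05. Sums over the list were 9283 in transgenic and 5496 in control islets, with Col1a1 and Pdgfra below the floor on both. Rgs5 weighed most in these sums, at 12.21 in transgenic and 11.26 in control islets. The lower markers were Thy1 and Dcn, at -0.19 and -0.10. Rgs5, Thy1 and Dcn were named after their values were seen. Of 10 measured acinar markers 9 were kept and 7 of these were higher (median 0.09), with sums of 111219 in transgenic and 102983 in control islets and with Ptf1a below the floor on both. The part of these cells in the members' differences was not tested.

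Array controls also differed. Poly-A spikes had a median difference of 1.51, with 24 of 24 probe sets positive, and hybridisation controls one of 0.40, with 18 of 18 positive. As a measure of RNA integrity, 3′ probe sets exceeded 5′ ones by 1.21 in transgenic and 1.09 in control islets for Actb, and by 0.55 in transgenic and 0.68 in control islets for Gapdh. Their part in the members' differences was not tested.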

How the data were processed

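The authors deposited 1 log2 value for each probe set and array, made with RMA in Affymetrix Expression Console, per the submitters' processing notes, which give no versions. This method corrects background, brings arrays to a common distribution and summarises probes. It gives no detection call and compresses differences at both ends of the scale. The number of arrays (1 per group) limits the precision.

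Groups came from the genotype label of each sample. Probe sets were named from the platform annotation, with symbols updated through Entrez identifiers to GRCm38.p6 (34741 of 34945 probe sets with 1 symbol matched). The 64 array controls and probe sets with several or no symbols were left out. The floor was 5.76. All members were named with both values; of other lists, genes past the 2-fold rule or else the 2 furthest each way could be named. The members and lists were chosen with earlier results of these data known. Alternatives were averaged probe sets, no _s, _x or _a probe sets, no floor or one of 7.81, a lowess trend (span 0.3), repeated quantile normalization, a 1.5-fold rule and a shorter motif. Counting was tested on simulated data. Python 3.11.15, numpy 2.4.6, pandas 2.3.3 and statsmodels 0.14.6 were used.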

Additional observations from a re-analysis of the deposited data

How the results depend on the processing

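Alternative values were set against the median range between probe sets of a gene, 0.28, in place of a replicate spread. The median difference of the 32 kept members stayed negative under every alternative run, from -0.24 to -0.12 under the planned ones, where the negative members ran from 19 of 25 (without _s, _x and _a probe sets) to 27 of 32 (normalized again). The count of members 2-fold lower was less stable: 0 with probe sets averaged, 1 after subtraction of the lowess trend, which left Mthfd2 just short of 2-fold, and 4 at 1.5-fold. At 1.5-fold the shares over all kept genes were 7.73% higher and 3.14% lower. Taking for each member the probe set with the highest difference, a choice added after seeing the data, gave a member median of -0.07, 20 of 32 negative and 0 members 2-fold lower, and turned the median of the transcription factors to 0.016. Taking the probe set with the lowest difference, also added after seeing the data, gave a median of -0.26, 27 of 32 negative and 3 members 2-fold lower. Without _s, _x and _a probe sets the stellate marker median was 0.55 and Slc1a4 stood at 0.01. The causes were not tested. The core TGATGNA was in promoters of 11 of 27 members (40.7%), which adds Atf5 and Mthfd2 to the 9 genes with TGATGNAA, and of 3723 of 27025 genes (13.8%). No paired analysis was possible because each group has 1 array. No detection call is given, so values near 5.76 cannot be told from background.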

Other observations

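Other transcription factors of the families to which ATF4, CHOP and the C/EBP partners belong leaned the same way. Of 19 kept genes of the ATF, CREB, C/EBP and AP-1 families outside the member list 14 had a negative difference, against 45.7% of all kept genes. Their median was -0.14, or -0.09 with probe sets averaged, and none passed the 2-fold rule. At 1.5-fold, 5 were lower (3.14% of all kept genes) and none higher (7.73%). Creb3l1, a factor activated by cleavage in the endoplasmic reticulum pathway, read 7.38 in transgenic and 8.22 in control islets, and Cebpd, a C/EBP factor of the acute phase, 9.23 in transgenic and 10.00 in control islets. Atf6b, a relative of ATF6, was the furthest on the higher side at 0.51, followed by Nfil3, a repressor with a basic leucine zipper, at 0.42.

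Mitochondrial tRNA synthetases, which are encoded by genes of their own, had a median of 0.07 over 15 kept genes, of which 6 were negative. Cars2 and Yars2 were the lowest at -0.19 and -0.15, and Ears2 and Rars2 the highest at 0.39 and 0.30.

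A further pair of probe sets carried the symbol Phgdh together with a predicted gene and was left out of the member values. The one shared with Gm8096 read 8.60 in transgenic and 8.97 in control islets, and the one shared with Gm6756 read 8.72 in transgenic and 8.84 in control islets.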
